A study of Mus musculus with 6 samples.

Results

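The Wnt pathway genes described here were followed in cultured mouse neural stem cells in which the transcription factor gene Sox4 had been targeted by RNA interference. Members were chosen by symbol: ligands, receptors, cytoplasmic and nuclear components, feedback inhibitors and planar polarity genes. A member also had to have a row of its own and a level of at least 1 in the higher of the compared conditions. Of 12316 gene rows, 59 met the rule. Fzd6, at 0.699 in the second and 0.645 in the first condition of the authors' deposited table, was the matching gene left out by the level. The nearest genes inside the limit were Prickle1, Fzd5 and Lef1, whose higher levels were 1.43, 1.64 and 1.83 in the authors' deposited table. RefSeq lists 88 mouse symbols that match the rule, and 28 of them have no row of their own in the table. Among the 28 are 14 Wnt genes, 4 Dkk genes and 4 Rspo genes. Those 28 genes were not analysed here.

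Neural stem cells of E14.5 embryos, of the CD-1 mouse strain, had been bought from a commercial supplier. All 6 libraries came from cells that had received a lentiviral short hairpin RNA (shRNA) and been selected with puromycin at 0.5 µg/mL, in monolayer culture with EGF and bFGF. Sox4 shRNA 1, Sox4 shRNA 2 and a scrambled shRNA had 2 libraries each, which the submitters describe as biological duplicates. Their titles end in p1 and p2, entered here as replicates 1 and 2, and the titles do not say what p stands for. The deposited comparison gives 1 level for each of 2 conditions, and neither its header nor its columns name them or say which hairpins they hold. Each fold below therefore divides the second condition by the first, and no hairpin is assigned to either. The words "rose" and "fell" are kept for genes that the authors called, on the side of the second condition. A call is the authors' own flag, set where the Cuffdiff q-value is at most 0.05. The header names no unit for the levels, which are read here as FPKM, fragments scaled to transcript length and sequencing depth, since Cuffdiff writes FPKM in these columns. The table has no value per library, so no spread between replicates can be given, the depth is unknown, and the order of neighbouring levels carries no error.

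Sox4 itself stood at 83.9 FPKM in the second and 126.8 FPKM in the first condition of the authors' deposited table, at q = 0.0543, and was not called. Marker genes are read against all 11564 genes that met the same level and row criteria, of which 3.29% were called higher and 1.89% lower. Of 9 markers of neural stem cells, 8 were measured, of which 1 rose, 1 fell and 6 were not called. Nes, the intermediate filament of neural progenitors, rose to 169.8 FPKM in the second condition, against 98.1 FPKM in the first, and Fabp7, the fatty acid binding protein of radial glia, fell to 2286 FPKM, against 4620 FPKM, both at q = 0.00304 in the authors' deposited table. The 8 markers summed to 3915 FPKM in the second and 6107 FPKM in the first condition, and without Fabp7 the other 7 summed to 1629 and 1486 FPKM, so the direction of the sum was set by Fabp7. Of 5 astrocyte markers Aldh1l1 rose and Gfap, Slc1a2 and Aqp4 fell, with sums of 61.7 FPKM in the second and 131.0 FPKM in the first condition. Of 6 neuron markers 3 were measured, of which Elavl4 fell, with a median log2 fold of -0.79. Their sums of 133.4 FPKM in the second and 133.1 FPKM in the first condition were mostly Map2, and without it Elavl4 and Tubb3 summed to 6.03 and 10.99 FPKM. None of the 6 mesenchymal, 3 endothelial or 3 microglial markers has a row among those analysed here. In bulk RNA, fewer cells of a type and less RNA per cell cannot be told apart, and the part of these marker shifts in the Wnt gene values was not tested.

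Wnt proteins are secreted signals that bind Frizzled receptors and the co-receptors Lrp5 and Lrp6 at the cell surface. Without a signal, a complex of Axin, APC, GSK3 and casein kinase 1 marks beta-catenin for destruction. With a signal, beta-catenin accumulates and joins TCF/LEF factors on target genes, while a separate branch through Vangl and Prickle proteins sets the polarity of cells in a sheet. In the developing brain Wnt signals are known to influence the division of neural progenitors and their choice between fates.

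Of the 59 Wnt pathway genes, 2 rose, 2 fell and 55 were not called. Fzd5 and Znrf3 rose, and Apcdd1 and Lef1 fell. Fzd5 and Lef1 reached the minimum level of 1 only in the condition where each was higher. The same limit held for all genes. The called share was 6.78% of members, against 5.18% of all genes. Higher calls made up 3.39% of members and 3.29% of all genes, and lower calls 3.39% of members and 1.89% of all genes, so the shares stood near the background. A further 14 members had an unadjusted p under 0.05 without being called. With the called genes this made 18 members, 11 higher and 7 lower, or 30.5%. Of all genes 17.8% had such a p, 10.1% higher and 7.75% lower. Folds were mostly small: 31 members, or 52.5%, had an absolute log2 fold under 0.25, against 56.9% of all genes. The median log2 fold was 0.16 over members and 0.00039 over all genes, and 43 members, or 72.9%, had a positive fold, against 50.1% of all genes.

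**Figure D1:**
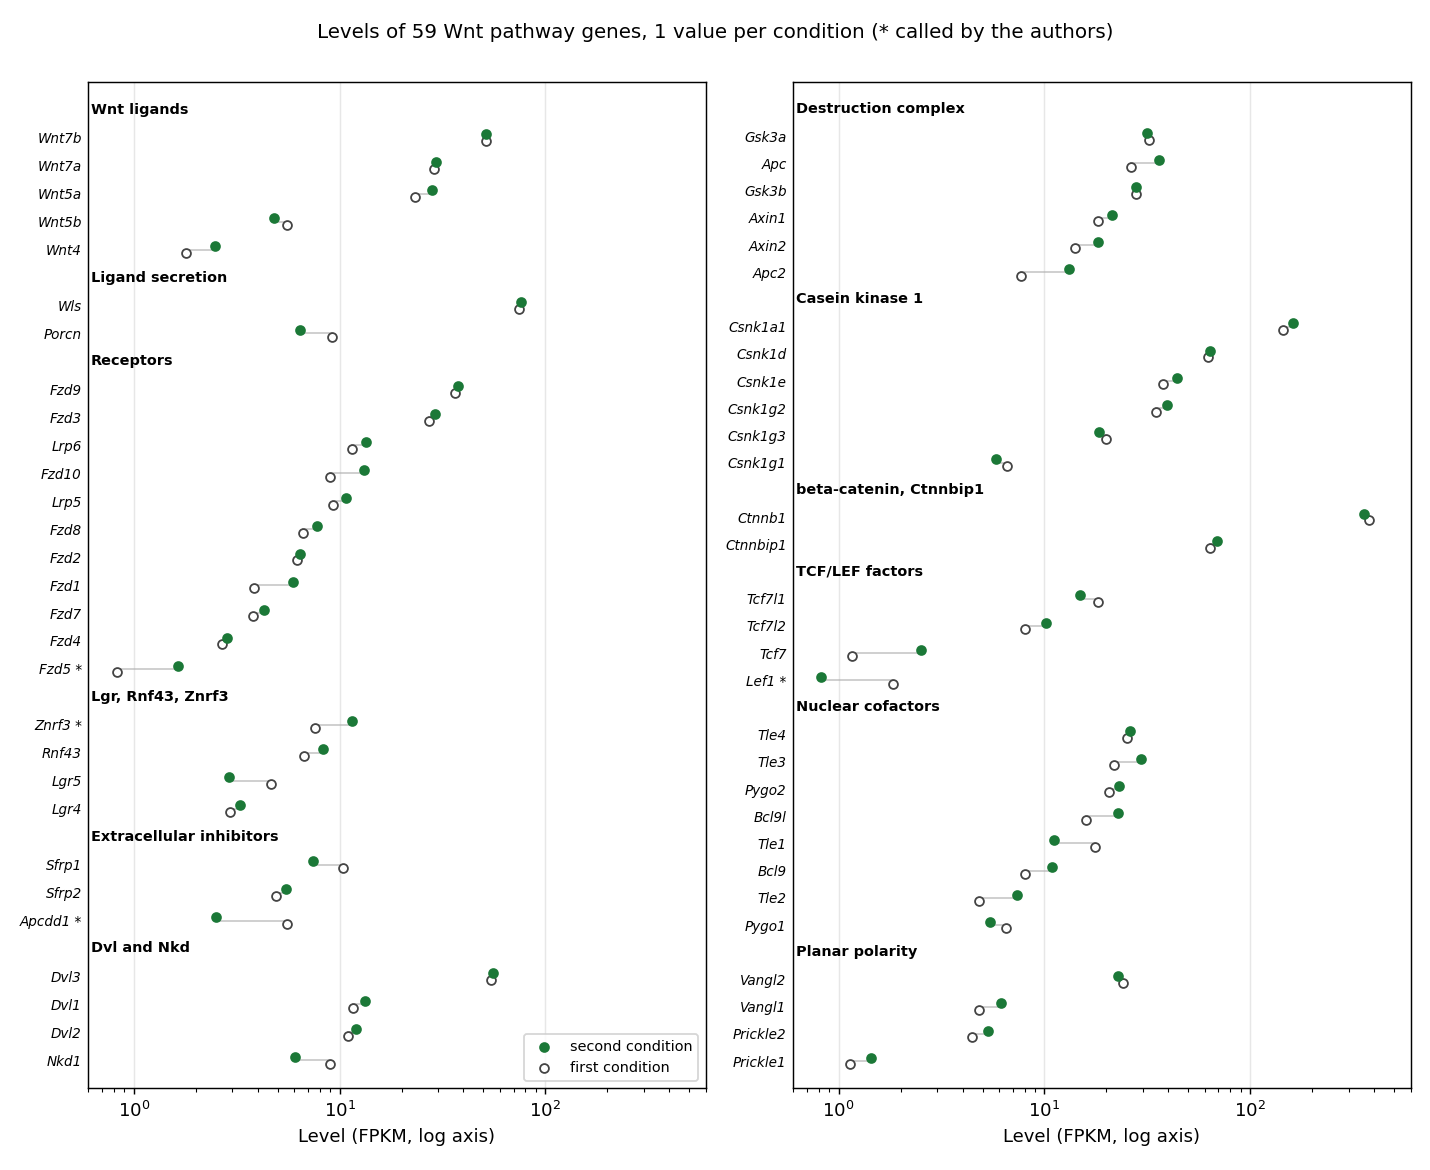
Level of each of the 59 Wnt pathway genes in FPKM on a log axis, grouped by role, with filled points for the second and open points for the first condition, 1 value each, and an asterisk on the 4 called genes. Ctnnb1 stands farthest to the right at 358.2 and 378.8 FPKM, and of the called genes Fzd5 and Lef1 sit at the low end, under 2 FPKM in both conditions.

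Among the ligands, the cells carried mainly Wnt7b, Wnt7a and Wnt5a. By Cuffdiff 0 of 5 ligands were called, against 5.18% of all genes, and 0 had an unadjusted p under 0.05, against 17.8%. Wnt7b and Wnt7a are closely related ligands known in the forebrain for signalling through beta-catenin, and Wnt5a is best known for signalling without it. Wnt7b stood at 51.5 FPKM in the second and 51.4 FPKM in the first condition of the authors' deposited table, which was 44.2% and 46.4% of the summed level of the 5 measured ligands. Wnt7a stood at 29.5 and 28.6 FPKM, and Wnt5a at 28.3 and 23.4 FPKM, in the second and first condition of the authors' deposited table. Both levels of each of these genes lay close together, with q-values between 0.481 for Wnt5a and 0.997 for Wnt7b. Wnt5b was at 4.80 and 5.53 FPKM and Wnt4 at 2.47 and 1.79 FPKM in the second and first condition of the authors' deposited table. The 5 ligands summed to 116.5 FPKM in the second and 110.7 FPKM in the first condition. Exons of Wnt5a overlap those of Gm2670 and exons of Wnt7b those of AU022754, each on the other strand, and whether strand was used in counting is not given in the sources used here.

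Wls, the carrier that takes Wnt proteins to the cell surface, was at 76.0 FPKM in the second and 74.5 FPKM in the first condition of the authors' deposited table. Porcn, the enzyme that attaches the lipid Wnt proteins need for secretion, was at 6.41 and 9.18 FPKM in the second and first condition of the authors' deposited table. Its log2 fold of -0.52 had an unadjusted Cuffdiff p of 0.0389 and q = 0.271 in the authors' deposited table, and Porcn was not called.

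All 11 measured receptor and co-receptor genes had a positive fold, against 50.1% of all genes. Their median transcript length was 5161 nt, and of all genes over the median length 62.2% had a positive fold. Of the 11, 8 had an absolute log2 fold under 0.25, and 1, Fzd5, rose, with 3.29% of all genes called higher. Fzd5 encodes a Frizzled receptor known from eye and gut development (chromosome 1, 64730558 to 64737751, minus strand, GENCODE M21 on GRCm38). It stood at 1.64 FPKM in the second and 0.829 FPKM in the first condition of the authors' deposited table. The log2 fold of Fzd5 was 0.99, or 1.98-fold, at a Cuffdiff q = 0.0270 in the authors' deposited table. This was a rise at the low end of expression, since 3.63% of all genes had a lower mean level. Fzd5 made up 1.51% of the summed level of the 9 measured Frizzled genes in the second and 0.855% in the first condition. Exons of Fzd5 overlap those of Gm38058 on the other strand. Its transcript of 6915 nt lies in the longest 10% of transcripts. Of the 1151 genes there 159 rose and 12 fell, against 381 and 218 of all 11564 genes.

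Fzd9 and Fzd3 led the Frizzled genes. Fzd9 stood at 37.7 FPKM in the second and 36.6 FPKM in the first condition, and Fzd3, which is known from axon guidance and planar polarity, at 29.2 and 27.3 FPKM, in the authors' deposited table. Together with Fzd10 they held most of the summed Frizzled level of 109.0 FPKM in the second and 96.9 FPKM in the first condition. Fzd10 was at 13.2 FPKM in the second and 8.98 FPKM in the first condition of the authors' deposited table, giving a log2 fold of 0.55 (p = 0.0110, q = 0.134). Fzd1 was at 5.97 FPKM in the second and 3.86 FPKM in the first condition of the authors' deposited table, giving a log2 fold of 0.63 (p = 0.00545, q = 0.0888). Neither Fzd10 nor Fzd1 was called, although both folds exceeded 0.549, the smallest absolute log2 fold of any called row. Fzd8, Fzd2, Fzd7 and Fzd4 had levels between 2.67 and 7.74 FPKM and log2 folds between 0.040 and 0.22 in the authors' deposited table. The co-receptor gene Lrp6 was at 13.5 and 11.5 FPKM and Lrp5 at 10.7 and 9.28 FPKM in the second and first condition of the authors' deposited table, with q-values of 0.590 and 0.672.

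Znrf3, a ubiquitin ligase that removes Frizzled receptors from the cell surface, rose. It lies on chromosome 11, 5276324 to 5444847, minus strand (GENCODE M21 on GRCm38). Znrf3 stood at 11.5 FPKM in the second and 7.62 FPKM in the first condition of the authors' deposited table. The log2 fold was 0.59, 1.51-fold, at a Cuffdiff q = 0.0485 in the authors' deposited table, close to the limit of 0.05. Rnf43, its partner of like function, was at 8.29 and 6.74 FPKM in the second and first condition of the authors' deposited table, giving a log2 fold of 0.30 (q = 0.498). Lgr4 and Lgr5 encode receptors for R-spondins, which bind Znrf3 and Rnf43 and relieve that removal. Lgr5 was at 2.91 FPKM in the second and 4.66 FPKM in the first condition of the authors' deposited table, giving a log2 fold of -0.68 (p = 0.00455, q = 0.0794). Lgr4 was at 3.28 and 2.93 FPKM in the second and first condition of the authors' deposited table, at q = 0.812. Znrf3 was thus the called gene of these 4, where 3.29% of all genes were called higher. Of the 4, Lgr5 was lower and the others were higher in the second condition.

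Apcdd1, a membrane protein that binds Wnt ligands and dampens the signal, fell. The gene lies on chromosome 18, 62922231 to 62961179, plus strand (GENCODE M21 on GRCm38). Apcdd1 stood at 2.50 FPKM in the second and 5.56 FPKM in the first condition of the authors' deposited table. The Apcdd1 log2 fold was -1.16, 2.23-fold lower, with a p of 5e-05, the lowest in the table and shared by 230 rows, and a Cuffdiff q = 0.00304 in the authors' deposited table. It was the single member at that p. Its transcript of 10879 nt is among the longest 10%, in which 159 of 1151 genes rose and 12 fell. Sfrp1, a secreted protein that binds Wnt ligands, was at 7.42 FPKM in the second and 10.4 FPKM in the first condition of the authors' deposited table, giving a log2 fold of -0.49 (p = 0.0182, q = 0.180). Sfrp2, of the same family, was at 5.47 and 4.94 FPKM in the second and first condition of the authors' deposited table, at q = 0.860. Of these 3 extracellular inhibitors, 1 fell and 0 rose, where 1.89% of all genes were called lower and 3.29% higher. The 3 genes summed to 15.4 FPKM in the second and 20.9 FPKM in the first condition.

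**Figure D2:**
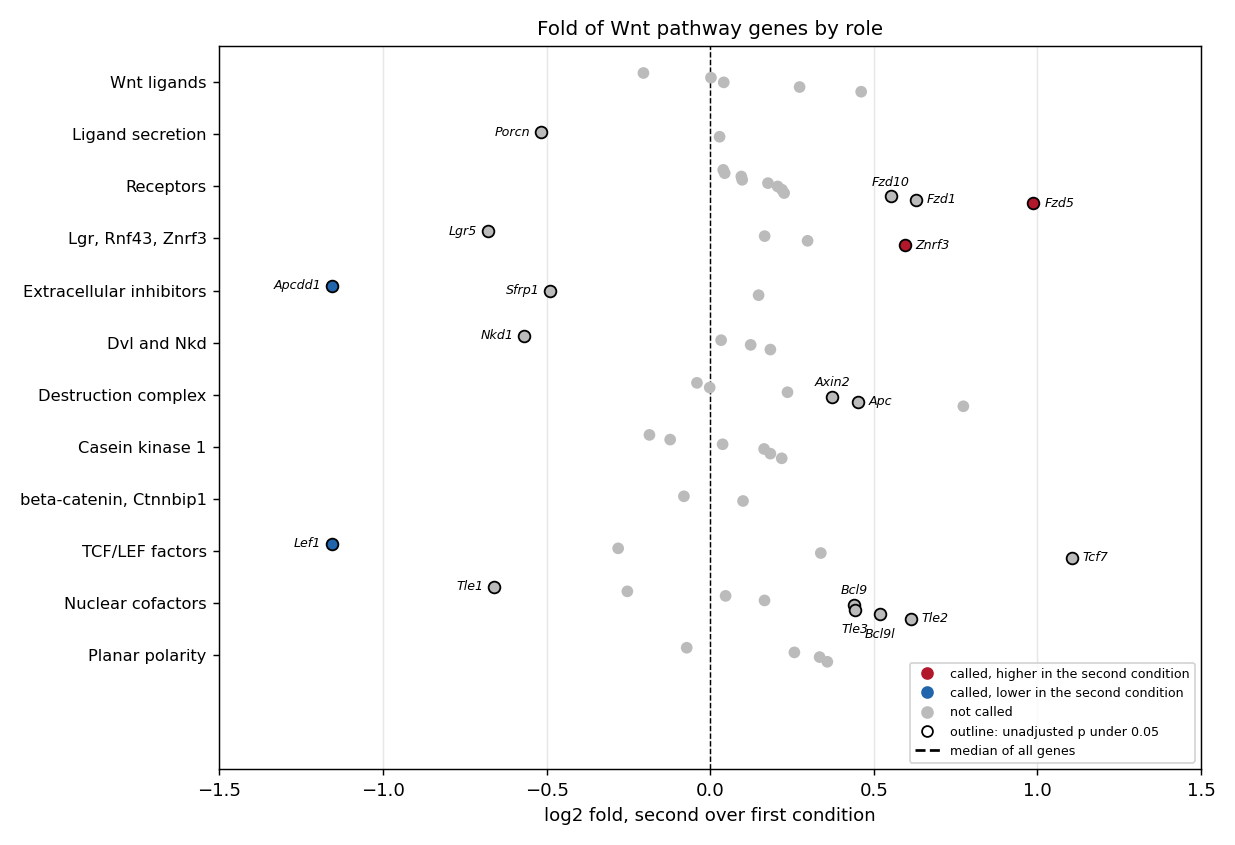
Log2 fold of the second over the first condition for each of the 59 Wnt pathway genes by role, with red and blue points for called genes, grey for genes not called, a black outline where the unadjusted p is under 0.05, and a dashed line at the median of all genes. Apcdd1 and Lef1 lie near -1.16, Fzd5 at 0.99 and Znrf3 at 0.59, while Tcf7 at 1.10 and Apc2 at 0.77 were not called.

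Of the 4 Dishevelled and Naked genes, 0 were called by Cuffdiff and 1 had an unadjusted p under 0.05. The shares of all genes were 5.18% and 17.8%. The Dishevelled genes, which pass the signal on from Frizzled, had levels between 10.98 FPKM for Dvl2 and 55.7 FPKM for Dvl3 and log2 folds between 0.033 and 0.18 in the authors' deposited table. Nkd1, a feedback inhibitor that binds Dishevelled, was at 6.06 FPKM in the second and 8.99 FPKM in the first condition of the authors' deposited table. Its log2 fold of -0.57 had a p of 0.00605 and q = 0.0957 in the authors' deposited table, and Nkd1 was not called.

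In the destruction complex, 0 of 6 genes were called by Cuffdiff and 2 had an unadjusted p under 0.05. Over all genes the shares were 5.18% and 17.8%. The kinase genes Gsk3a and Gsk3b hardly differed between conditions. Gsk3b stood at 27.75 FPKM in the second and 27.78 FPKM in the first condition, and Gsk3a at 31.3 and 32.2 FPKM, in the authors' deposited table, with q-values of 0.997 and 0.963. Apc, the scaffold named for adenomatous polyposis, was at 36.1 FPKM in the second and 26.4 FPKM in the first condition of the authors' deposited table, giving a log2 fold of 0.45 (p = 0.0119, q = 0.139). The scaffold Axin1 was at 21.3 and 18.1 FPKM in the second and first condition of the authors' deposited table, at q = 0.584. Axin2, the same kind of scaffold and a widely used target of beta-catenin, was at 18.2 FPKM in the second and 14.1 FPKM in the first condition of the authors' deposited table. The Axin2 log2 fold of 0.37 had a p of 0.0496 and q = 0.306 in the authors' deposited table. Apc2, a relative of Apc found mainly in the nervous system, stood at 13.2 FPKM in the second and 7.73 FPKM in the first condition of the authors' deposited table. Its log2 fold of 0.77 was larger than that of Znrf3, but its test statistic was 0.387, against 1.90 for Znrf3, and its q was 0.822 in the authors' deposited table. Exons of Apc2 overlap those of 2310011J03Rik and exons of Axin2 those of Gm11670, each on the other strand.

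The casein kinase 1 genes spanned a wide range of levels with small folds. By Cuffdiff 0 of 6 were called, against 5.18% of all genes, and 0 had an unadjusted p under 0.05, against 17.8%. Csnk1a1, the kinase that primes beta-catenin for GSK3, was the most abundant at 161.4 FPKM in the second and 144.0 FPKM in the first condition of the authors' deposited table. Csnk1g1 was the lowest at 5.80 and 6.60 FPKM in the second and first condition of the authors' deposited table. All 6 had absolute log2 folds under 0.25, and the lowest q among them was 0.614, for Csnk1e, in the authors' deposited table. Ctnnb1, which encodes beta-catenin, had the highest level of any member. It stood at 358.2 FPKM in the second and 378.8 FPKM in the first condition of the authors' deposited table, giving a log2 fold of -0.080 (q = 0.904). Its mean level exceeded that of 98.5% of all genes. Ctnnbip1, an inhibitor that keeps beta-catenin from TCF factors, was at 68.6 and 64.0 FPKM in the second and first condition of the authors' deposited table, at q = 0.855. The mRNA levels of beta-catenin and of this inhibitor thus differed little between conditions, and their proteins were not measured.

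At the nuclear end Lef1, a TCF/LEF factor that is itself a known target of the pathway, fell. It lies on chromosome 3, 131110471 to 131224356, plus strand (GENCODE M21 on GRCm38). Lef1 stood at 0.823 FPKM in the second and 1.83 FPKM in the first condition of the authors' deposited table. The Lef1 log2 fold was -1.16, 2.23-fold lower, at a Cuffdiff q = 0.0416 in the authors' deposited table. Like Fzd5, it was a scarce transcript, and 4.32% of all genes had a lower mean level. Exons of Lef1 overlap those of Gm43352 on the other strand. Tcf7, the relative of Lef1, differed in the opposite direction without being called. It was at 2.50 FPKM in the second and 1.16 FPKM in the first condition of the authors' deposited table, giving a log2 fold of 1.10 (p = 0.00365, q = 0.0699), the lowest q among members not called.

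The bulk of TCF/LEF expression lay in the other two genes. Tcf7l1, often a repressor of Wnt targets, was at 14.9 and 18.2 FPKM, and Tcf7l2 at 10.2 and 8.07 FPKM, in the second and first condition of the authors' deposited table, with q-values of 0.512 and 0.413. Of the summed TCF/LEF level, Tcf7l1 made up 52.5% in the second and 62.1% in the first condition, and Tcf7l2 35.8% and 27.6%. Tcf7 made up 8.79% in the second and 3.98% in the first condition, and Lef1 2.89% and 6.28%. The sum itself was 28.5 FPKM in the second and 29.2 FPKM in the first condition. Tcf7 was above Lef1 in the second condition and below it in the first, while the total hardly differed, and no test was made of these shares.

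Promoter windows of the called members are shown so that the sequence before their starts can be read beside their values. RefSeq sequences on GRCm38.p6 were taken for the 250 bases before each annotated start, and 40 of the 59 genes had 64 such windows. Neither Znrf3 nor Apcdd1 was among them. Capitals mark any of 3 motifs, read on both strands: a core shared by TCF/LEF and SOX factors, a TCF/LEF form and a SOX form. The shared core is CTTTGT, which reads as ACAAAG on the other strand, and both kinds of factor bind it through an HMG box. The TCF/LEF form is CTTTGA, which reads as TCAAAG on the other strand. The SOX form is AACAAT, which reads as ATTGTT on the other strand. No 2 of the motifs are the same letters on either strand, but a match of one can overlap the edge of another. Lef1 has several annotated starts, of which the first and the last in the gene's direction are shown, at chr3:131110047-131110296 and chr3:131156044-131156293 on the plus strand. The Fzd5 window is chr1:64737751-64738000, on the minus strand.
Lef1, first start: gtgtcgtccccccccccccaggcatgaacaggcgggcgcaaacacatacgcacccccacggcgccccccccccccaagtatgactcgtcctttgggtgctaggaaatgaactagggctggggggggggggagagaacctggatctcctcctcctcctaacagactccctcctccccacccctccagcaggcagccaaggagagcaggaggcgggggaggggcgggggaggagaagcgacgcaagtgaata
Lef1, last start: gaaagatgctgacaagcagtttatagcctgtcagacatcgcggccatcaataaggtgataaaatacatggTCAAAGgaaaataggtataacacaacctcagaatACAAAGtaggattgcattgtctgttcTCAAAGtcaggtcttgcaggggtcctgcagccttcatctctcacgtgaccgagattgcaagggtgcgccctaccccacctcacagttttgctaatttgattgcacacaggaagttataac
Fzd5: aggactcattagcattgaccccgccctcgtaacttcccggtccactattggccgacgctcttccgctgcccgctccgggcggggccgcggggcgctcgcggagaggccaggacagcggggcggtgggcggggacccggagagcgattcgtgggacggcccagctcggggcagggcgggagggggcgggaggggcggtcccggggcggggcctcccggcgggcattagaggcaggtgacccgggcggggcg

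The window at the last Lef1 start held 1 match of CTTTGT and 2 of CTTTGA, and the window at Fzd5 held 0 of any. Of the 4 Lef1 windows 3 held 0 of any, the one at the first start and both not shown. The GC content was 66.4% at the first and 44.8% at the last Lef1 start, and 76.4% at Fzd5. CTTTGT stood in 15.6% of the member windows and in 16.5% of all 32817 windows, CTTTGA in 9.38% and 13.8%, and AACAAT in 6.25% and 9.42%. A match describes the letters of the window, and the table does not say which start the transcripts used.

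Of the 8 nuclear cofactors, 0 were called by Cuffdiff and 5 had an unadjusted p under 0.05. Of all genes 5.18% were called and 17.8% had such a p, and no test was made of these shares. Tle genes encode Groucho-type co-repressors that bind TCF/LEF factors when beta-catenin is absent. Tle1 was at 11.1 FPKM in the second and 17.6 FPKM in the first condition of the authors' deposited table, giving a log2 fold of -0.66 (p = 0.0209, q = 0.195). Tle2 was at 7.35 and 4.80 FPKM and Tle3 at 29.5 and 21.7 FPKM in the second and first condition of the authors' deposited table, with log2 folds of 0.61 and 0.44 and q-values of 0.126 and 0.175. Tle4 was at 26.1 and 25.3 FPKM in the second and first condition of the authors' deposited table, at q = 0.948. Exons of Tle1 overlap Gm11250 and exons of Tle2 overlap Gm15917, each on the other strand. Bcl9 and Bcl9l link beta-catenin to the Pygo proteins, which bind modified histones. Bcl9l was at 22.8 and 15.9 FPKM and Bcl9 at 10.9 and 8.02 FPKM in the second and first condition of the authors' deposited table, with log2 folds of 0.52 and 0.44 and q-values of 0.0838 and 0.211. Pygo2 was at 23.0 and 20.5 FPKM and Pygo1 at 5.46 and 6.51 FPKM in the second and first condition of the authors' deposited table, with q-values of 0.753 and 0.711. Exons of Bcl9l overlap those of Cxcr5 and Gm47205 on the other strand. Tle1 and Pygo1 were the lower ones of these 8 genes, and the other 6 had positive folds.

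Of the 4 planar polarity genes of the rule, 0 were called by Cuffdiff and 0 had an unadjusted p under 0.05. The shares of all genes were 5.18% and 17.8%. Vangl2, a membrane protein of this branch needed for neural tube closure in mice, was at 22.83 and 23.99 FPKM in the second and first condition of the authors' deposited table. Vangl1, Prickle2 and Prickle1 had levels between 1.14 and 6.17 FPKM and log2 folds between 0.26 and 0.36 in the authors' deposited table, and the lowest q of the 4 was 0.438, for Vangl1.

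Genes of the pathway that the symbol rule leaves out were taken from a list of 61. Of these 51 were measured, of which 5 rose, 2 fell and 44 were not called. The rises made up 5 of 51 genes, with 3.29% of all genes called higher, and the falls 2 of 51, with 1.89% of all genes called lower. This list too was chosen with earlier results of these data known. The extracellular inhibitors among them went both ways. Draxin, a secreted inhibitor that also guides axons, fell to 3.33 FPKM in the second condition, against 8.40 FPKM in the first, giving a log2 fold of -1.33 (q = 0.00304) in the authors' deposited table. Frzb, a secreted Frizzled-related protein, fell to 1.05 FPKM in the second condition, against 2.42 FPKM in the first, at q = 0.0211 in the authors' deposited table. Sostdc1, a secreted inhibitor of Wnt and BMP signals, rose to 5.66 FPKM in the second condition, against 1.83 FPKM in the first, giving a log2 fold of 1.63 (q = 0.00304) in the authors' deposited table. Shisa3, whose family holds Frizzled receptors inside the cell, rose to 6.64 FPKM in the second condition, against 3.28 FPKM in the first, at q = 0.00304 in the authors' deposited table. Exons of Shisa3 overlap those of Atp8a1 on the other strand.

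The other 3 rises were long genes. Celsr2 and Celsr3 encode large cadherins of the planar polarity branch. Celsr2 stood at 10.3 FPKM in the second and 6.43 FPKM in the first condition, and Celsr3 at 1.15 and 0.614 FPKM, in the authors' deposited table, with q-values of 0.00708 and 0.0292. Celsr3 reached the minimum level only in the second condition, where it was higher. Macf1, a linker of actin and microtubules that also binds Axin, stood at 16.0 FPKM in the second and 9.29 FPKM in the first condition of the authors' deposited table, at q = 0.0119. The longest transcripts of Celsr2, Celsr3 and Macf1 measured 10598, 11571 and 23495 nt. All are in the longest 10%, in which 159 of 1151 genes rose and 12 fell. Kremen1, a receptor for Dkk inhibitors, was at 19.9 FPKM in the second and 13.6 FPKM in the first condition of the authors' deposited table, at q = 0.0580, and was not called.

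**Figure D3:**
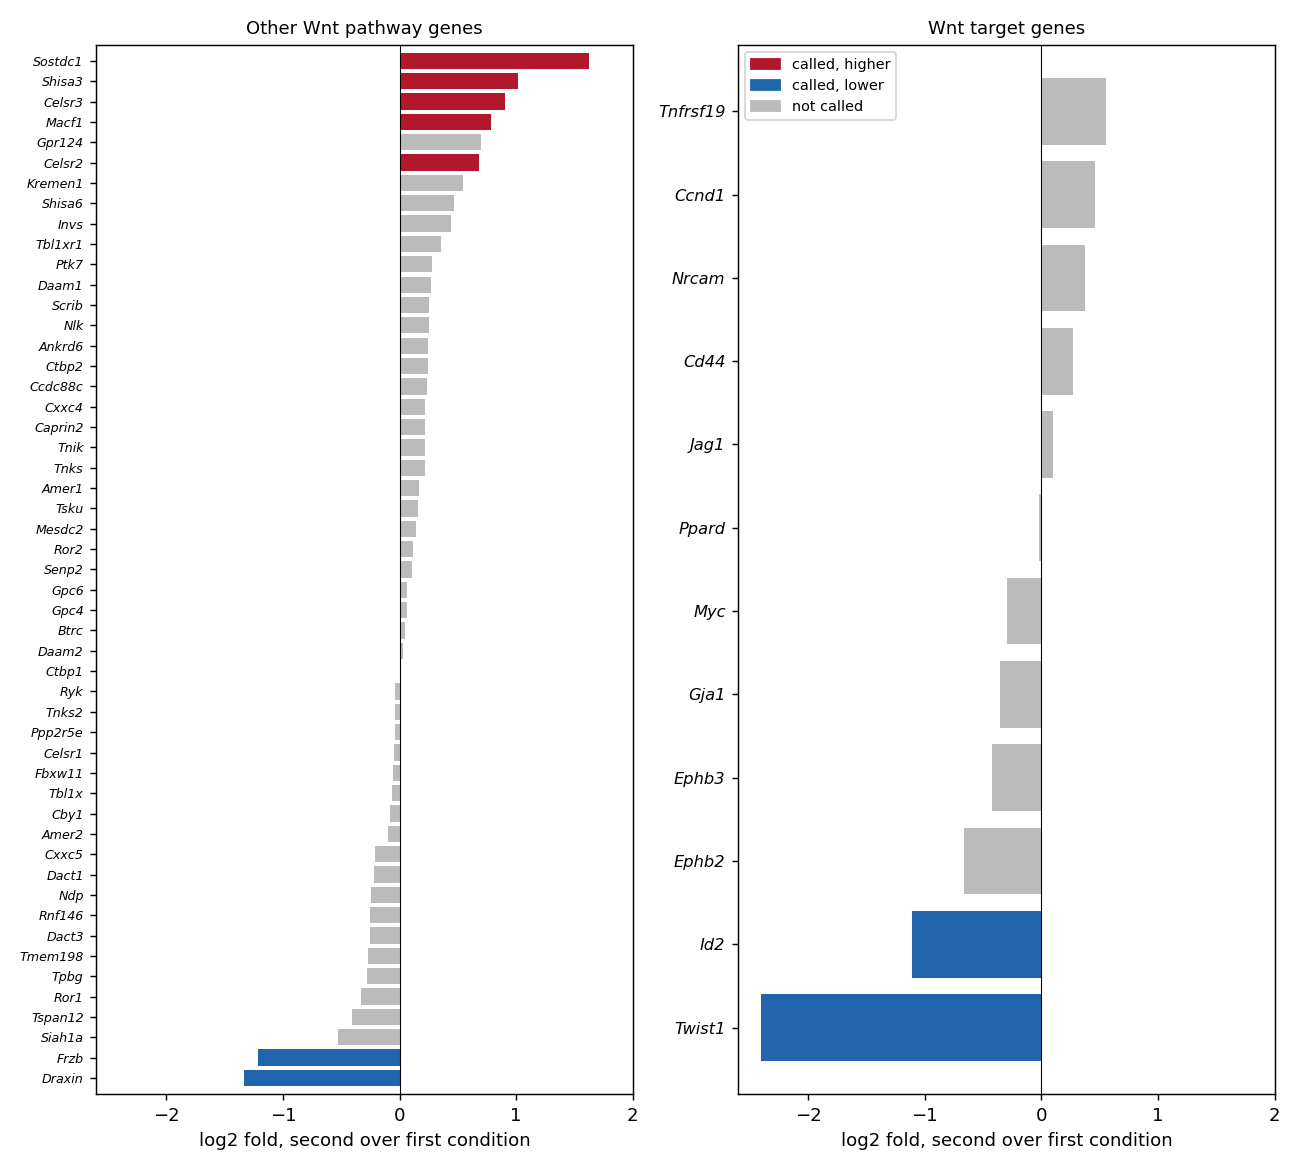
Log2 fold of the second over the first condition for 51 Wnt pathway genes outside the symbol rule and for 12 Wnt target genes, with 1 bar per gene, red and blue where called. Sostdc1 at 1.63 and Draxin at -1.33 are at the ends of the first panel, and Twist1 at -2.41 is the lowest bar of the second panel.

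A list of 31 genes holds targets of beta-catenin known from other tissues. Of these 12 were measured, of which 0 rose and 2 fell by Cuffdiff, and 3 were higher and 5 lower at an unadjusted p under 0.05. The called share was 16.7%, against 5.18% of all genes, and the share at such a p was 66.7%, against 17.8%. The falls were Id2, which blocks bHLH transcription factors, and Twist1, a transcription factor of mesoderm. Id2 stood at 38.0 FPKM in the second and 81.9 FPKM in the first condition, and Twist1 at 0.515 and 2.73 FPKM, in the authors' deposited table, with q-values of 0.00304 and 0.00708. Twist1 reached the minimum level only in the first condition, where it was higher. The list was drawn up with earlier results of these data known, both falls among them. Neither its shares nor its direction is therefore independent of these data. Ccnd1, the G1 cyclin gene, was at 245.5 and 178.3 FPKM and Myc at 25.7 and 31.5 FPKM in the second and first condition of the authors' deposited table, with q-values of 0.144 and 0.466. Tnfrsf19, a receptor of the TNF family, was at 67.1 FPKM in the second and 45.7 FPKM in the first condition of the authors' deposited table, giving a log2 fold of 0.55 (q = 0.0510). The median log2 fold of the 12 genes was -0.16. Members by the symbol rule are not in this list, so it leaves out targets such as Axin2, at a log2 fold of 0.37, and Lef1, at -1.16.

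Over all genes, the fold ran with transcript length. The median log2 fold of all genes was -0.23 in the shortest and 0.24 in the longest of 10 equal length groups. Wnt pathway genes are long, with a median of 4249 nt against 3205 nt over all genes, and 46 of the 59 lie above that median of all genes. Of those 46 members 73.9% had a positive fold, against 62.2% of the 5751 genes over the same length, and their median log2 fold was 0.17, against 0.086. In the longest group, 11 members had a median log2 fold of 0.23, against 0.24 over all genes of that group. Fzd5 and Apcdd1 are in that group, and the part of length in the members' positive median was not tested further.

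**Figure D4:**
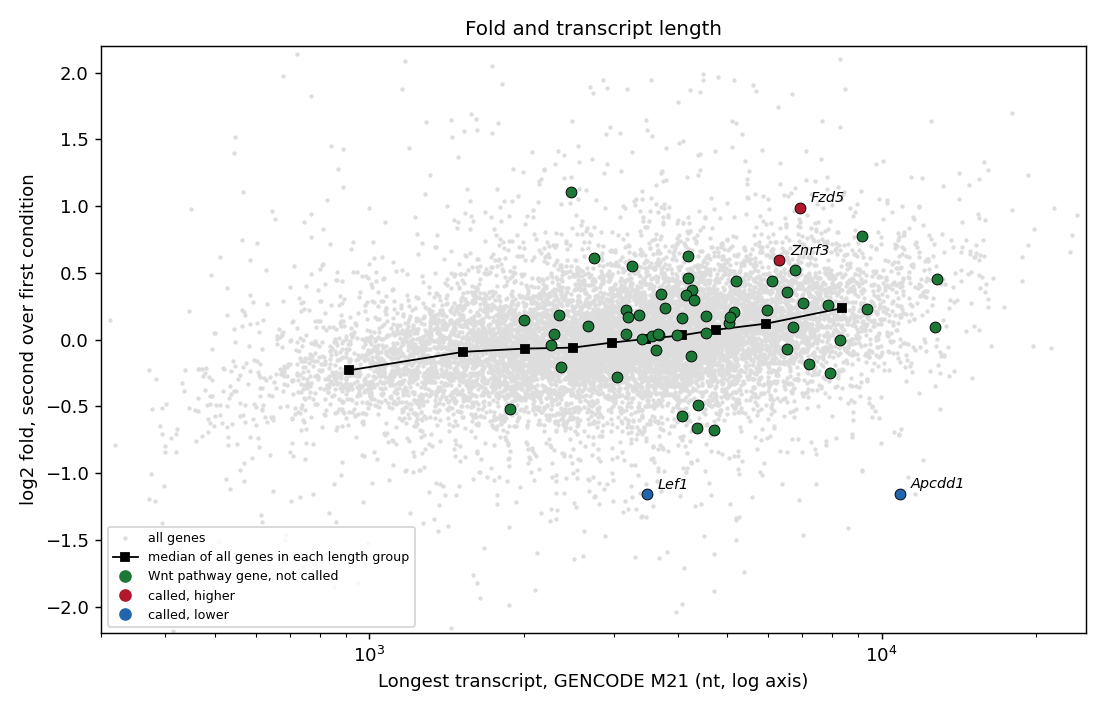
Log2 fold of the second over the first condition against the longest transcript of each gene in nt on a log axis, with grey points for all genes, squares for the median of each of 10 length groups, green points for members not called and red and blue points for called members. The medians run upward with length, to 0.24 in the longest group, Fzd5 and Znrf3 lie above them and Lef1 and Apcdd1 below, and 130 of 11507 genes lie outside the axes.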

How the data were processed

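Poly(A) RNA libraries were made with a SOLiD kit, per the labels' protocols. Reads had been processed with TopHat2 (2.0.9), Cufflinks (2.2.1) and Cuffdiff on the build mm10, per the submitters' processing notes. For the annotation, the strand setting and the version of Cuffdiff, nothing is stated in the sources used here. Per the file headers, the deposited table holds a level in each of 2 conditions, a log2 fold, a test statistic (a score), a p-value and a q-value. The authors' levels are taken as FPKM, which Cuffdiff writes there. The authors' q-values were used as deposited and no model was refitted, so p-values measure only the spread the authors' libraries gave.

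Members, lists and tests were chosen with earlier results of these data known. All genes here means 11564 rows that name 1 gene, whose symbol stands in 1 row, at a level of at least 1. Text names every called gene of the members and lists, members at an unadjusted p under 0.05, those of highest level, and others by role or family. Mesd and Adgra2 were read under their older names Mesdc2 and Gpr124. Positions, exon overlaps and longest transcripts came from GENCODE M21 (99.5% of genes), promoters from RefSeq. Exon overlaps are named for some genes only, and further members have them. Python 3.11.15, pandas 2.3.3 and matplotlib 3.10.9 were used. The q recomputation, the counting and the motif search were tried on simulated data with large planted differences, which does not test the authors' calls. Oligodendrocyte markers are not reported here.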

Additional observations from a re-analysis of the deposited data

How the results depend on the processing

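The counts of calls are small, so most stricter settings changed them. At a q of 0.01 the Wnt pathway genes had 0 rises and 1 fall (Apcdd1), and the other pathway genes 3 rises and 1 fall. Among calls whose log2 fold was 1 or more in size, the rises were 0 among members and 2 among the other pathway genes. At a level of at least 5, members had 1 rise and 1 fall, the other pathway genes 1 fall and the target genes 1 fall. Without the longest 10% of transcripts, members had 1 rise (Znrf3) and 1 fall (Lef1), and the other pathway genes 2 rises. With q recomputed over the 11564 genes, the target genes had 1 rise, where 3.61% of all genes were called higher and 2.1% lower. Shares over all genes at the higher level and without the longest transcripts are not given here, so those counts have no background beside them. The shares of all genes called higher and lower were 1.74% and 0.943% at a q of 0.01, and 1.08% and 0.709% for log2 folds of that size. The remaining 33 of 47 alternative values of the counts and of the members' median stayed near the value reported. Some of these 33 could not have moved. Centring shifted each fold by the all-gene median of 0.00039, while the smallest absolute log2 fold called was 0.549. The target genes' 0 rises could not fall at a stricter setting. Of 62 log2 folds recomputed with a pseudocount of 1 or 0.1, 6 shrank by over 1.5 times, all at a pseudocount of 1 and at low levels, Fzd5 and Lef1 among them. A pseudocount cannot change a sign. No paired analysis was possible because the levels used here are 1 per condition and carry no replicate number. Leaving out each replicate could not be run for the same reason. Depth is unknown, so no limit of detection can be stated for Fzd5, Lef1 or other scarce transcripts.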
